A study of Mus musculus with 8 samples.

Results

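Integrins, laminins and nidogens were described in sorted (Biosorter) pieces of the distal convoluted tubule of mice, a short nephron segment that reabsorbs NaCl through a thiazide-sensitive cotransporter. The members were all genes whose mouse symbol named an integrin alpha or beta chain, a laminin alpha, beta or gamma chain, or 1 of the nidogens Nid1 and Nid2. The rule found 39 genes of 42416 gene identifiers: 18 integrin alpha, 8 integrin beta, 5 laminin alpha, 3 laminin beta, 3 laminin gamma and 2 nidogen genes. Of these, 29 had 10 or more counts in 4 or more libraries and were tested, among 14444 genes tested in all, and 10 did not reach that minimum.

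The 4 KO libraries came from mice labelled Cnb1fl Tg/Tg and the 4 Control libraries from mice labelled Cnb1fl wt. Animals of both groups also carried NCCcre Tg/+ and TOMATO Tg/+, a Cre driver that bears the name of the segment's cotransporter, and a fluorescent reporter. All mice received tamoxifen, 2 mg daily on each of 5 days, which switches on an inducible Cre, and tubules were taken 3 weeks later. Cnb1 is the regulatory B subunit of the calcium-dependent phosphatase calcineurin (gene symbol Ppp3r1), and the comparison asks what its loss from this segment does to the transcriptome. Each library held the RNA of 1000 sorted fragments and carried its own animal number. Age and sex were not given in the sources used here.

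Total counts were between 18161442 and 45150953 per library. Ppp3r1 itself had 74.0 to 97.7 CPM (the standard depth-corrected read count, here on library sizes scaled by TMM) in KO and 84.3 to 108 CPM in Control, with a log2 fold change of -0.18 ± 0.13 (SE, n = 4 each, edgeR adjusted p = 0.549). The groups overlapped, so the target did not check the genotype labels, and KO and Control name the deposited labels. The cotransporter gene Slc12a3 marked the segment in every library, at 3910 to 8080 CPM in KO and 5652 to 8040 CPM in Control. The summed level of 15 distal convoluted tubule markers was 11381 to 17431 CPM in KO and 25501 to 31856 CPM in Control. Among them 1 was higher and 7 lower, against 1.23% and 0.838% of all genes tested (edgeR, adjusted p under 0.05). Their log2 fold changes ran from -8.055 to 0.63, with a median of -0.74, so the sum does not describe each marker. Markers of the neighbouring thick ascending limb summed to 3086 to 5872 CPM in KO and 8075 to 12947 CPM in Control, with 1 of 6 tested lower, Umod. KO replicate 4 and Control replicate 1 held the lowest sums of proximal tubule, podocyte, endothelial, fibroblast and principal cell markers of their own group. They also held the lowest distal convoluted tubule sums, with 11381 CPM (next 13791) and 25501 CPM (next 25603). Thick ascending limb sums were lowest in KO replicate 4 and Control replicate 2, and intercalated cell sums in KO replicate 1 and Control replicate 3. Across all genes Control replicate 1 differed most from its group. Its chi-square per degree of freedom was 89.7 to 186.2 against the other Control libraries, which had 28.1 to 61.9 among themselves. KO replicate 4 had 36.9 to 84.2 against the other KO libraries, and KO replicate 1 had 70.85 to 78.9. This measure grows with depth, and KO replicate 4 was the shallowest library and KO replicate 1 the deepest. It therefore cannot tell whether KO replicate 4 stood apart. In the principal cell list 0 of 7 markers had a fold change above 0, with a median log2 fold change of -1.04. Before adjustment 6 of them were lower by edgeR (p under 0.05), against 6.13% of all genes, and 0 passed after it. Fold changes were above 0 in 0 of 11 tested fibroblast and 0 of 10 proximal tubule markers. They were above 0 in 1 of 8 podocyte, 3 of 15 endothelial and 3 of 8 intercalated cell markers, against 47.1% of all genes. The sums of distal convoluted tubule and thick ascending limb markers differed between the groups without overlap. The part of these markers in the members' values was not tested. In these bulk libraries, fewer cells of a type and less RNA per cell cannot be told apart.

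Tubule cells stand on a basement membrane, a sheet in which laminin trimers of an alpha, a beta and a gamma chain are linked to type IV collagen by nidogens. Integrins are surface receptors made of an alpha and a beta chain that bind such matrix proteins outside the cell and the actin or keratin skeleton inside it. In the mature tubule, the laminin alpha chain Lama5 is a main component of this sheet. Itga6 and Itga3 are laminin-binding alpha chains, Itga1 forms a collagen receptor, and Itgav forms receptors for matrix and for the latent form of TGF-beta.

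The beta chain gene Itgb6 was the single member that passed the test in KO, with 1 of 29 tested members higher and 0 lower. Over all genes tested, 2.06% passed, 1.23% higher and 0.838% lower (edgeR quasi-likelihood test, adjusted p under 0.05). Before adjustment, 9 members had a p under 0.05 with the higher level in KO and 0 with the lower, against 7.80% and 6.13% of all genes. DESeq2 called 5 members higher and 0 lower, against 5.22% of all genes, 2.95% higher and 2.27% lower. The limma-voom fit called 4 higher and 0 lower, against 3.93%, 2.18% higher and 1.74% lower. The 4 KO libraries lay above the 4 Control libraries in 6 members, against 5.60% of all genes, and below them in 0, against 3.80%. A fold change above 0 was seen in 16 of the 29, against 47.1% of all genes. The median log2 fold change of the tested members was 0.05, and that of all genes tested was -0.02.

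The members fell into a group at high and a group at low levels, split here at a mean of 10 CPM over the 8 libraries, a limit chosen after their values were seen. Of the 13 members at or above it, 8 had an unadjusted p under 0.05 with the higher level in KO (7.38% of all genes at such a level), 11 had a fold change above 0 (49.8%), and in 5 every KO library lay above every Control library (5.13%). Their median log2 fold change was 0.62, and that of the 9345 genes at such a level was -0.0015. The 16 tested members below it had a median log2 fold change of -0.30, and 11 of them had a fold change below 0. Of the 5099 genes tested at such a level, 58.0% had a fold change below 0, and their median was -0.08. Among the 16, Itgb4 alone had an unadjusted p under 0.05, no overlap between the groups and a DESeq2 call, and its log2 fold change of 1.34 was the highest of all tested members. The members' summed share of all counts was 0.244%, 0.247%, 0.209% and 0.378% in KO replicates 1 to 4, and 0.138%, 0.190%, 0.157% and 0.168% in Control replicates 1 to 4. Mitochondrially encoded genes took 15.4%, 16.4%, 18.4% and 13.4% of counts in KO, and 18.2%, 17.025%, 19.1% and 19.1% in Control. KO replicate 4 thus had the highest member share and the lowest mitochondrial share, and KO replicate 3 the lowest and the highest of its group. With mitochondrially encoded genes removed from the table, 1 member was called higher and 0 lower, with a log2 fold change of 0.70 for Itgb6, and the part of RNA quality beyond this was not tested.

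**Figure D1:**
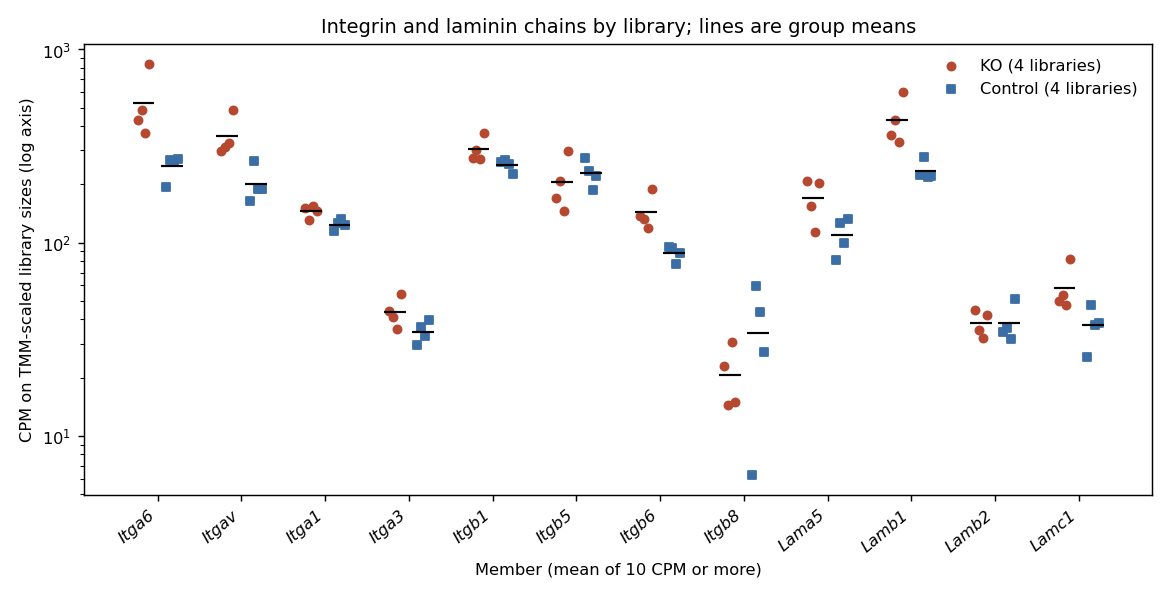
Level of 12 of the 13 members with a mean of 10 CPM or more in each library, in CPM on a log axis, with KO libraries as circles left of Control libraries as squares and lines at the group means. Itgb6, Itga6, Itgav, Lamb1 and Itgb1 show every KO library above every Control library, and KO replicate 4 is the highest KO library in each of them.

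Itgb6 (ENSMUSG00000026971, chromosome 2, 60598292 to 60722643, minus strand, GRCm38) encodes an epithelial beta chain that pairs only with the Itgav chain and that binds and activates latent TGF-beta. Its level was 137, 133, 119 and 190 CPM in KO replicates 1 to 4, and 94.9, 94.1, 77.9 and 88.6 CPM in Control replicates 1 to 4. All KO libraries were above all Control libraries. The log2 fold change was 0.70 ± 0.15 (SE, n = 4 each, edgeR adjusted p = 0.0491), a fold of 1.63. Without KO replicate 4 it was 0.55, with an adjusted p of 0.0960.

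That call lies close to the threshold. Among the 18 other settings, Itgb6 kept it in 8 and had a log2 fold change between 0.55 and 0.86, with adjusted p-values from 0.00191 to 0.191. Leaving out any single library other than KO replicate 3 ended the call, as did a term for the form of the deposited file name (adjusted p = 0.0804), blocking on the leading digits of the animal numbers (0.191), and a filter of at least 5 CPM (0.0587). Those digits split the libraries into 3 sets. In the set with 1 library per group the log2 ratio of KO to Control CPM was 0.53, in the set with 3 KO and 2 Control libraries it was 0.78, and the third set held 1 Control library alone.

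The levels of the beta chains can be set against each other within a library, as the share of the summed CPM per kilobase of exon over all 8 beta chain genes. The share of Itgb6 was 14.03%, 12.2%, 13.2% and 13.1% in KO replicates 1 to 4, and 8.58%, 8.79%, 8.41% and 9.29% in Control replicates 1 to 4. These shares do not depend on how libraries are scaled, and the groups did not overlap. KO replicate 4, which had the highest level of Itgb6 in CPM, lay inside the range of the other KO libraries by this measure.

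Promoter windows of RefSeq (GRCm38.p6) run from 250 bases before a gene's start to 50 bases after it, and 24 of the 39 members had one, with 27 windows in all. The windows of Itgb6, Lamb1 and Itgav are shown because these were 3 of the 4 members with the smallest p. The fourth of them was Itga6. Each is written 5′ to 3′ on the gene's own strand, with the letters GGGCGG or its complement CCGCCC, the GC box, in capitals.
Itgb6, chr2:60722554-60722853, minus strand: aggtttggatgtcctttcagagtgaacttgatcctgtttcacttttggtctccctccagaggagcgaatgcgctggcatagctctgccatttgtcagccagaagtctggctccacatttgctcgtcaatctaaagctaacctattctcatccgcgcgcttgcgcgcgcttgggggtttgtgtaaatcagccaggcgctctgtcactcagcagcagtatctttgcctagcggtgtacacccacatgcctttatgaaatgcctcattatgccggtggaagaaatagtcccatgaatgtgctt
Lamb1, chr12:31265043-31265342, plus strand: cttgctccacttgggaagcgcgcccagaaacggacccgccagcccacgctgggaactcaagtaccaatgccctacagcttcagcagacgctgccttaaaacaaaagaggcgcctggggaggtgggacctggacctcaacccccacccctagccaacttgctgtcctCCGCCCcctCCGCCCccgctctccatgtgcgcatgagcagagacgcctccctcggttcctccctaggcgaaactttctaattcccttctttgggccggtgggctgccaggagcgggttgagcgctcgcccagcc
Itgav, chr2:83724147-83724446, plus strand: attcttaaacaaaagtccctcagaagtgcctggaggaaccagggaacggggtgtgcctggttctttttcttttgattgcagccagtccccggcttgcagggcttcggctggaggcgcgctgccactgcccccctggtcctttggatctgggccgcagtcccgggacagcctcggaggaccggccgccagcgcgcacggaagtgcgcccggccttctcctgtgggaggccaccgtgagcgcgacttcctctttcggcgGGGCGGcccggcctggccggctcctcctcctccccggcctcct

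The window of Lamb1 held the GC box letters at 2 places, which begin 84 and 75 bases before the start, and that of Itgav held them at 1 place, 7 bases after it. The Itgb6 window shown held none, and neither did a second Itgb6 window at chr2:60673644-60673943. The GC box letters were in 13 of the 27 member windows and in 35.7% of 32851 RefSeq windows of 300 bases. G and C made up 50.3% of the Itgb6 window shown, 63.7% of that of Lamb1 and 67.3% of that of Itgav, where the median of all windows was 52.7%.

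NFAT proteins are the transcription factors that calcineurin activates, and the letters GGAAA or TTTCC are the core that they bind. These letters were in 15 of the 27 member windows and in 61.3% of all windows, and in none of the windows of Itgb6, Lamb1 and Itgav. The AP-1 letters TGANTCA were in 3 member windows and 7.81% of all windows. None of the Itgb6, Lamb1 and Itgav windows held them. Both strands were searched for each motif, and none of the motifs contains another.

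The other beta chains were described by their values. Itgb1, the common partner of Itga1, Itga3 and Itga6, had 275, 303, 270 and 368 CPM in KO replicates 1 to 4, and 263, 267, 255 and 228 CPM in Control replicates 1 to 4. The groups did not overlap, but the log2 fold change of 0.26 ± 0.13 did not pass (SE, n = 4 each, edgeR adjusted p = 0.402). Itgb5, a partner of Itgav in vitronectin binding, had 171, 208, 147 and 300 CPM in KO, and 273, 234, 186 and 222 CPM in Control, and the groups overlapped. Its log2 fold change was -0.15 ± 0.22 (edgeR adjusted p = 0.769) and turned to 0.01 with library totals as the scaling.

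Per kilobase, Itgb1 and Itgb5 were the most abundant integrin beta transcripts in both groups. Itgb1 stood at 74.4 ± 11.1 CPM per kilobase in KO and 62.0 ± 4.31 in Control (SD, n = 4 each). Itgb5 stood at 58.0 ± 18.9 in KO and 64.4 ± 10.1 in Control. Within each KO library Itgb1 was above Itgb5, with 44.1% to 51.7% of the beta chain sum against 32.3% to 41.2%. In Control these shares overlapped, at 41.4% to 47.9% for Itgb1 and 40.2% to 49.4% for Itgb5. Itgb6 followed with 20.4 ± 4.34 CPM per kilobase in KO and 12.5 ± 1.10 in Control. The ratio of Itgb6 to Itgb5, per kilobase, was 0.36 ± 0.05 in KO and 0.20 ± 0.02 in Control (SD, n = 4 each), with no overlap between the groups.

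Itgb4, which pairs only with Itga6 and anchors hemidesmosomes to keratin, had 5.23, 6.09, 5.23 and 13.9 CPM in KO replicates 1 to 4, and 2.24, 3.80, 2.40 and 3.45 CPM in Control replicates 1 to 4. All KO libraries were above all Control libraries, and KO replicate 4 was the highest by far. The log2 fold change was 1.34 ± 0.36 (SE, n = 4 each, edgeR adjusted p = 0.106), the highest of all tested members, and DESeq2 alone called it (adjusted p = 0.00968). Without KO replicate 4 it was 0.88. Itgb8, another Itgav partner that activates latent TGF-beta, had 22.9, 14.5, 30.6 and 14.98 CPM in KO, and 6.29, 59.4, 43.6 and 27.1 CPM in Control. The KO libraries lay within the Control range, with Control replicate 1 the lowest of all libraries, and the log2 fold change of -0.72 ± 0.53 did not pass (edgeR adjusted p = 0.558). It was -1.08 without Control replicate 1 and -0.31 without Control replicate 2.

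Among the alpha chains, Itga6 and Itgav were the most abundant. Itga6 (ENSMUSG00000027111, chromosome 2, 71745616 to 71858416, plus strand), the laminin-binding chain, had 432, 487, 370 and 836 CPM in KO replicates 1 to 4, and 194, 269, 262 and 272 CPM in Control replicates 1 to 4. Every KO library was above every Control library. The log2 fold change was 1.09 ± 0.25 (SE, n = 4 each, edgeR adjusted p = 0.0556), a fold of 2.13 that just missed the threshold. Without KO replicate 4 it was 0.78 (adjusted p = 0.0833). It was called in 5 of the 18 other settings, among them DESeq2 (adjusted p = 0.00106), limma-voom (0.0249) and the fit without KO replicate 3 (0.0357).

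Itgav (ENSMUSG00000027087, chromosome 2, 83724397 to 83806916, plus strand), the partner of Itgb5, Itgb6 and Itgb8, had 300, 314, 327 and 484 CPM in KO replicates 1 to 4, and 164, 265, 189 and 188 CPM in Control replicates 1 to 4. Again the groups did not overlap. The log2 fold change was 0.82 ± 0.20 (SE, n = 4 each, edgeR adjusted p = 0.0746), and 0.63 without KO replicate 4. DESeq2, limma-voom and the fit with no filter on low counts called it, and the 15 other settings did not. Between the libraries whose file name carries an index sequence, KO replicate 1 and Control replicate 2, the log2 ratio was 0.18, and among the other 6 libraries it was 1.06. The same 2 ratios were 0.54 and 0.76 for Itgb6, 0.37 and 1.04 for Lamb1, and 0.69 and 1.22 for Itga6. For Itgb4 they were 0.46 and 1.64, but for Lama5 they were 0.73 and 0.59. The libraries with an index sequence were also the deepest, with 45150953 and 42389558 counts.

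Itga3, an alpha chain that pairs with Itgb1 to bind laminin, had 44.4, 41.1, 35.6 and 54.4 CPM in KO, and 29.6, 36.4, 32.8 and 39.8 CPM in Control, with a log2 fold change of 0.34 ± 0.15 (edgeR adjusted p = 0.350). Itga1, the collagen-binding chain, had 152, 131, 154 and 145 CPM in KO, and 115, 126, 133 and 123 CPM in Control, with 0.23 ± 0.10 (adjusted p = 0.363). In both genes the lowest KO library lay below the highest Control library. A predicted gene on the same strand shares 685 bases of exon with Itga1 and held 14.4% as many counts, so part of its value is uncertain.

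Per kilobase of exon, Itga6 stood at 58.9 ± 23.1 CPM in KO and 27.6 ± 4.12 in Control, and Itgav at 33.1 ± 8.02 in KO and 18.8 ± 4.08 in Control (SD, n = 4 each). Itga1 and Itga3 came next and were not apart beyond their spread, at 7.82 ± 0.57 and 7.68 ± 1.39 CPM per kilobase in KO and at 6.67 ± 0.40 and 6.07 ± 0.77 in Control. Each other alpha chain had a mean of at most 0.43 CPM per kilobase in both groups. The ratio of Itga6 to Itga3 was 7.49 ± 1.59 in KO and 4.55 ± 0.40 in Control, with no overlap between the groups. The share of Itga6 in the alpha chain sum was 46.6% to 59.4% in KO and 42.8% to 47.5% in Control, and these ranges overlapped.

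**Figure D2:**
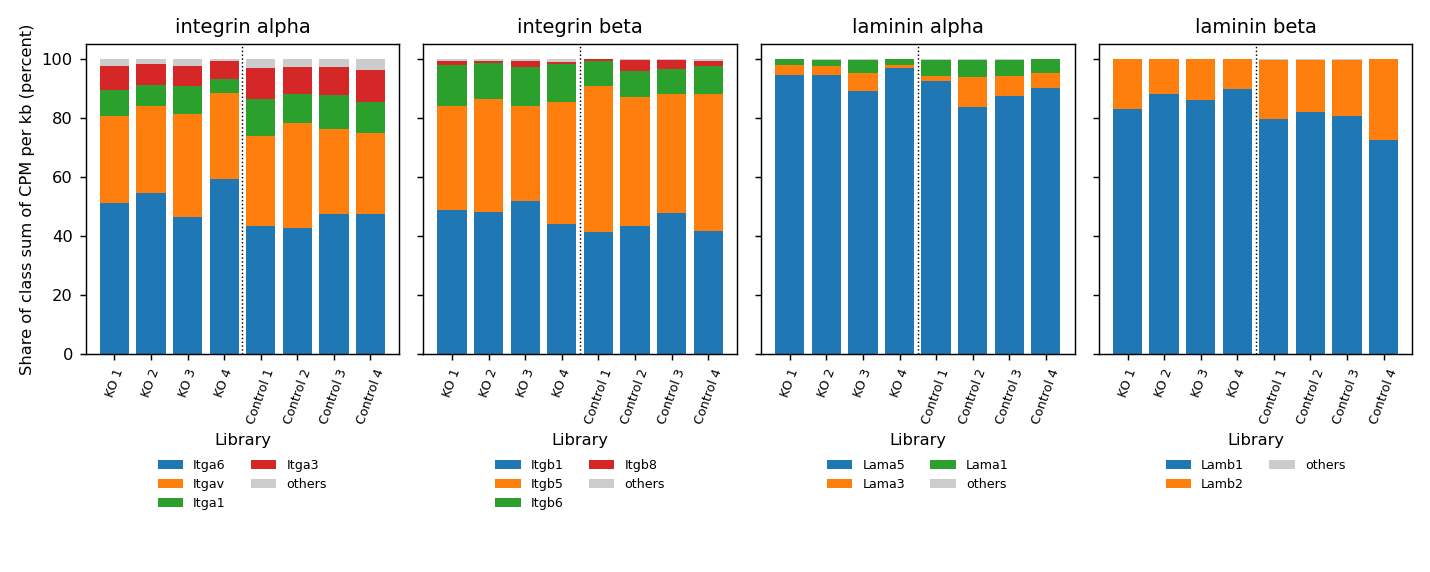
Share of each gene in the summed CPM per kilobase of exon of its class (percent) for integrin alpha, integrin beta, laminin alpha and laminin beta chains, 1 bar per library, with the 4 KO libraries left of the dotted line and the 4 Control libraries right of it. The Itgb6 band is 12.2% to 14.03% in KO and 8.41% to 9.29% in Control, and the Lamb1 band is 83.0% to 89.8% in KO and 72.4% to 82.1% in Control.

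Among the laminins, Lamb1 (ENSMUSG00000002900, chromosome 12, 31265234 to 31329644, plus strand) was the most abundant transcript and came nearest to the threshold. Lamb1 encodes a beta chain that joins Lamc1 and an alpha chain in many laminin trimers. It had 359, 431, 330 and 603 CPM in KO replicates 1 to 4, and 223, 278, 219 and 221 CPM in Control replicates 1 to 4. All KO libraries were above all Control libraries. The log2 fold change was 0.87 ± 0.19 (SE, n = 4 each, edgeR adjusted p = 0.0503), a fold of 1.83 that missed the threshold, and with edgeR's filterByExpr in place of the count minimum it passed (adjusted p = 0.0499). Lamb1 passed in 7 of the 18 other settings, and without KO replicate 4 its log2 fold change was 0.67 (adjusted p = 0.0985).

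Lamb2, the beta chain of mature glomerular and muscle basement membranes, did not show this difference. It had 44.5, 35.2, 32.0 and 42.1 CPM in KO, and 34.4, 36.2, 31.8 and 51.1 CPM in Control, with a log2 fold change of 0.0036 ± 0.17 (edgeR adjusted p = 0.994) whose sign turned in 10 of the 18 other settings. Per kilobase, the ratio of Lamb1 to Lamb2 was 4.95, 7.52, 6.33 and 8.78 in KO replicates 1 to 4, and 3.98, 4.72, 4.21 and 2.65 in Control replicates 1 to 4. The ratio did not overlap between the groups. Lamb3, found in the laminin of epidermal hemidesmosomes, had 0.58, 0.27, 0.43 and 0.10 CPM in KO, and 0.49, 1.25, 0.78 and 0.40 CPM in Control, with a log2 fold change of -1.04 ± 0.54 (edgeR adjusted p = 0.416).

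Lama5 made up most of the laminin alpha transcripts, with 93.8% ± 3.30 of the per-kilobase sum in KO and 88.5% ± 3.79 in Control (SD, n = 4 each). It had 208, 155, 113 and 203 CPM in KO replicates 1 to 4, and 81.6, 126, 99.6 and 132 CPM in Control replicates 1 to 4. KO replicate 3 lay within the Control range. The log2 fold change was 0.63 ± 0.22 (SE, n = 4 each, edgeR adjusted p = 0.221), a fold of 1.55, and no setting called it.

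The remaining alpha chains were low. Lama3, the alpha chain of epidermal laminin, had 6.96, 4.67, 7.08 and 1.504 CPM in KO, and 1.46, 14.3, 6.95 and 7.06 CPM in Control, with a log2 fold change of -0.56 ± 0.60 (edgeR adjusted p = 0.688). KO replicate 4 and Control replicate 1 held the lowest values of their groups. Lama1, the alpha chain of early embryonic and tubular basement membranes, had 3.70, 3.01, 4.92 and 4.01 CPM in KO, and 3.95, 7.51, 5.49 and 5.56 CPM in Control. Its groups overlapped at Control replicate 1, and the log2 fold change was -0.53 ± 0.25 (edgeR adjusted p = 0.370).

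Among the gamma chains, Lamc1, the gamma chain of most laminins, had 49.9, 53.4, 47.6 and 82.7 CPM in KO replicates 1 to 4, and 25.6, 47.7, 37.3 and 38.6 CPM in Control replicates 1 to 4. The lowest KO library was just below the highest Control library. Its log2 fold change was 0.64 ± 0.22 (SE, n = 4 each, edgeR adjusted p = 0.221), and 0.43 without KO replicate 4. Lamc3 stood at 1.92 ± 0.52 CPM in KO and 1.76 ± 0.38 CPM in Control (log2 fold change 0.14 ± 0.30, adjusted p = 0.846).

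The nidogens were low and did not pass. Nid2 had 3.72, 4.32, 5.86 and 4.36 CPM in KO, and 2.88, 5.68, 4.70 and 4.36 CPM in Control, with a log2 fold change of 0.05 ± 0.25 (edgeR adjusted p = 0.945). It shares exon sequence with Rtraf on the opposite strand, which held 17.1 counts for each count of Nid2, so its value is uncertain. Nid1 had 0.88, 1.27, 2.83 and 0.30 CPM in KO, and 0.59, 2.21, 2.14 and 3.20 CPM in Control, with -0.62 ± 0.63 (adjusted p = 0.671).

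**Figure D3:**
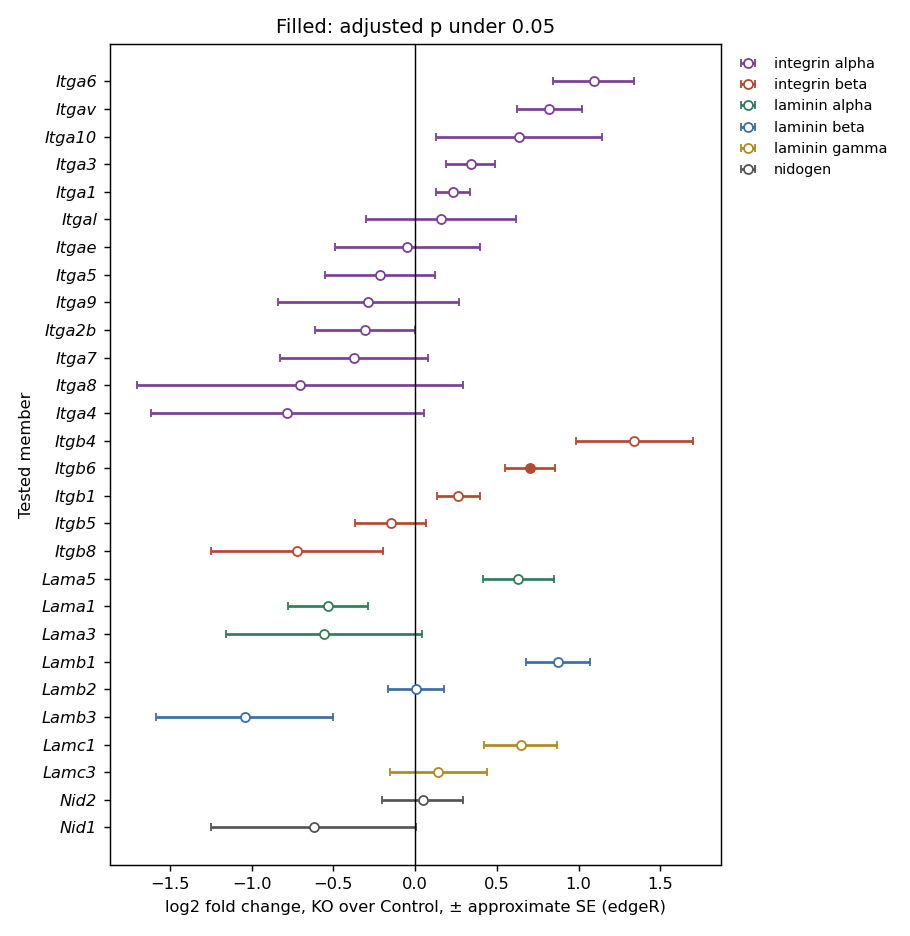
Log2 fold change of KO over Control with its approximate SE for 28 of the 29 tested members, coloured by class and ordered within each class. Itgb6, at 0.70, is the single filled point, and the open points run from Lamb3 at -1.04 to Itgb4 at 1.34.

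Alpha chains at low level belong mostly to other cell types in the textbook kidney. Itga8, the mesangial receptor for nephronectin, was at 2.02, 0.77, 2.60 and 0 CPM in KO, and 0.05, 2.77, 1.88 and 4.21 CPM in Control. Itga4, a chain of leukocytes and mesenchyme, was at 0.31, 0.85, 1.53 and 0 CPM in KO, and 0.34, 0.96, 1.202 and 2.15 CPM in Control. Both genes, Nid1 and Itga9 were lowest in KO replicate 4 among the KO libraries and in Control replicate 1 among the Control libraries. The same libraries held the lowest sums of fibroblast and mural cell markers of their groups, with 7.02 CPM in KO replicate 4 (others 9.52 to 29.7) and 22.9 CPM in Control replicate 1 (others 31.0 to 42.2). Podocyte marker sums were 16.0 CPM in KO replicate 4 and 18.9 CPM in Control replicate 1, and reached 109 CPM in other KO libraries and 151 CPM in other Control libraries. The part of those cells in the values of these members was not tested.

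The remaining low alpha chains did not pass. Itga10 had 4.18, 1.31, 0.71 and 1.203 CPM in KO, and 0.98, 1.18, 1.25 and 1.45 CPM in Control. Its log2 fold change of 0.63 ± 0.51 (edgeR adjusted p = 0.591) was -0.19 without KO replicate 1. A predicted gene on its strand shares exons with it and held 7.74 counts for each of its own. Itga2b, Itga5, Itga7, Itga8, Itga4, Itga9, Itgae and Itgal had log2 fold changes of -0.31, -0.22, -0.37, -0.70, -0.78, -0.29, -0.05 and 0.16, with means of 0.45 to 2.35 CPM in each group. Itga7 and Itga4 also share exon bases with a more abundant gene on the opposite strand.

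The 10 members below the count minimum were nearly absent from these libraries. Summed over 4 libraries each, Itgb2, the common leukocyte beta chain, had 13 counts in KO and 39 in Control. Its partners Itgam, Itgax and Itgad had 9, 18 and 0 counts in KO and 9, 15 and 1 in Control. The platelet and endothelial chain Itgb3 had 17 counts in KO and 31 in Control, and Itgb7 had 10 in KO and 13 in Control. The collagen-binding chains Itga2 and Itga11 had 17 and 2 counts in KO and 6 and 1 in Control. The laminin chains Lama4 and Lama2, of vessels and muscle, had 32 and 4 counts in KO and 48 and 3 in Control.

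The summed level of 20 leukocyte markers was 31.3 to 81.6 CPM in KO and 24.6 to 27.6 CPM in Control, with no overlap between the groups. Of these markers 9 were tested and 0 passed by edgeR, and DESeq2 called 3 higher, against 2.95% of all genes. Before adjustment, 3 higher (Csf1r, Cd68 and Ptprc) and 1 lower had a p under 0.05, against 7.80% and 6.13% of all genes. The lower one was Fcer1g, with a log2 fold change of -1.27. Csf1r, a macrophage receptor, made up much of the sum, at 32.7 ± 28.0 CPM in KO and 7.12 ± 0.79 CPM in Control (SD, n = 4 each). In KO replicate 1 it held 72.3 of the 81.6 CPM. Without it that library would lie below the Control libraries, so the lack of overlap rested on this gene. Of the 9 tested markers, 5 had a fold change above 0 and 4 below, with a median log2 fold change of 0.11. The lymphocyte markers Cd3e and Cd79a had 4 counts each over all libraries, and Ms4a1 had 0. The platelet markers Ppbp, Gp1ba and Treml1 had 0 counts, Gp9 had 2 and Pf4 had 4. The sixth, Gp1bb, had 151 counts and was the only one tested, at 0.77 ± 0.39 CPM in KO and 0.63 ± 0.18 CPM in Control (SD, n = 4 each, edgeR adjusted p = 0.815). The platelet integrin chain Itga2b had 218 counts in KO and 246 in Control.

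Other genes of the basement membrane were set beside the laminins from a list of 26, of which 20 were tested. Of these, 2 were higher in KO, 0 were lower and 18 did not pass, and the list's median log2 fold change was 0.40. Fras1, a protein of the epithelial basement membrane, rose to 57.2 ± 10.8 CPM in KO, against 32.6 ± 3.77 CPM in Control (log2 0.81 ± 0.15, edgeR adjusted p = 0.0292). Agrn, the heparan sulfate proteoglycan agrin, rose to 168 ± 51.9 CPM in KO, against 78.8 ± 15.01 CPM in Control (log2 1.09 ± 0.22, adjusted p = 0.0407). Before adjustment, 10 of the 20 had a p under 0.05, all with the higher level in KO, and DESeq2 and limma-voom each called 6 higher and 0 lower. Over all genes, the shares called higher were 1.23% by edgeR, 7.80% before adjustment, 2.95% by DESeq2 and 2.18% by limma-voom. The type IV collagen gene Col4a1, chosen here after its values were seen, had 131, 139, 98.2 and 256 CPM in KO, and 44.0, 66.6, 68.3 and 77.3 CPM in Control, with an adjusted p of 0.0516. As with Lamb1 and Itga6, KO replicate 4 was the highest library. Type IV collagen genes differed among themselves. The log2 fold changes were 0.90 for Col4a2, 0.77 for Col4a5 and 1.55 for Col4a6, but -0.26 for Col4a3 and 0.06 for Col4a4, and none of these passed.

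Of 24 genes of non-integrin laminin receptors and the dystroglycan pathway, 23 were tested, and 2 were higher, 0 lower and 21 did not pass (median log2 fold change 0.17). The shares of all genes tested were 1.23% higher and 0.838% lower. Utrn, the utrophin that links dystroglycan to actin, rose to 115 ± 26.3 CPM in KO, against 59.4 ± 14.1 CPM in Control (log2 0.95 ± 0.21, edgeR adjusted p = 0.0492). Its partner Sntb1, a syntrophin, rose to 24.0 ± 1.65 CPM in KO, against 16.9 ± 1.19 CPM in Control (log2 0.50 ± 0.11, adjusted p = 0.0491). The 5 adhesion lists described here held 43 focal adhesion, 11 tetraspanin and hemidesmosome, 20 basement membrane, 23 laminin receptor and 19 ligand genes tested. Npnt was counted in both the basement membrane and the ligand list. Over these 5 lists 6 genes passed in all, where 2.06% of all genes tested passed. In 6 of the 8 fits that left out 1 library, 0 genes of these lists passed.

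Of 29 soluble or cell-bound integrin ligands, 19 were tested, with 1 higher, 1 lower and 17 that did not pass (median log2 fold change -0.34). Of all genes tested, 1.23% were higher and 0.838% lower. Thbs1, thrombospondin, a matrix protein that binds integrins and activates latent TGF-beta, rose to 208 ± 45.9 CPM in KO, against 113 ± 19.4 CPM in Control (log2 0.88 ± 0.18, edgeR adjusted p = 0.0413). Ccn2, a matricellular protein of the connective tissue growth factor family, fell to 9.57 ± 3.28 CPM in KO, against 23.9 ± 4.55 CPM in Control (log2 -1.32 ± 0.24, adjusted p = 0.0248).

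Intracellular partners of integrins did not pass. Of 44 focal adhesion adaptors and kinases, 43 were tested and 0 passed by edgeR or limma-voom. Before adjustment, 2 higher and 4 lower had a p under 0.05, against 7.80% and 6.13% of all genes. DESeq2 called 1 higher, against 2.95% of all genes. The median log2 fold change was 0.11. The smallest p-values were those of Tns3, a tensin that binds beta chain tails, with a log2 fold change of 0.67 ± 0.20 (edgeR adjusted p = 0.146), and of Csrp1, an actin-associated LIM protein, with -0.68 ± 0.22 (adjusted p = 0.178). Of 12 tetraspanins and hemidesmosome proteins, 11 were tested and 0 passed by edgeR. Before adjustment 1 higher and 0 lower had a p under 0.05, against the same 7.80% and 6.13%. DESeq2 and limma-voom called 1 higher each, against 2.95% and 2.18% of all genes. Plec, the plectin that ties Itgb4 to keratin, had 65.7, 65.0, 37.7 and 96.9 CPM in KO, and 20.6, 27.8, 25.0 and 44.3 CPM in Control (log2 1.17 ± 0.30, edgeR adjusted p = 0.0894). The tetraspanin Cd82 had 0.43 ± 0.20 (adjusted p = 0.366).

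**Figure D4:**
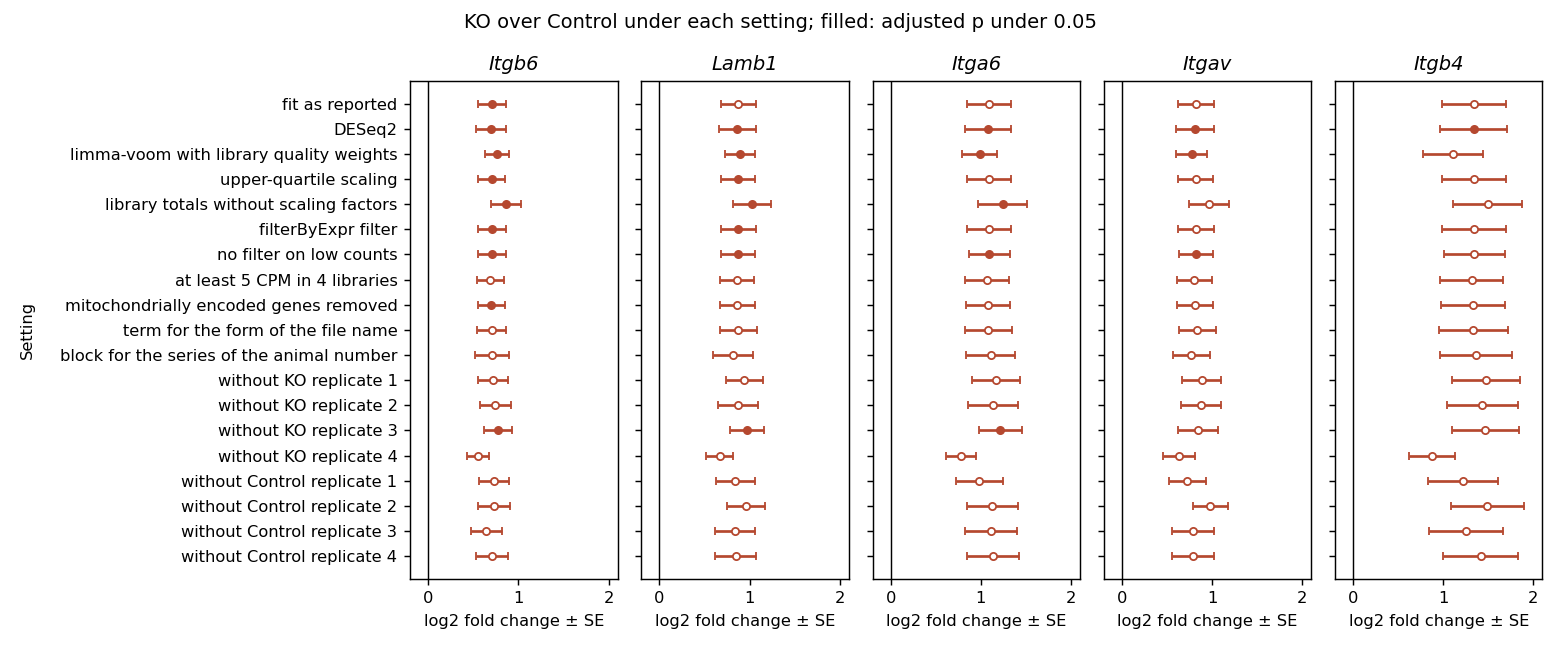
Log2 fold change with SE for the 5 members with the smallest p, in the fit as reported and in 18 other settings, with filled points where the adjusted p was under 0.05. All points lie above 0, and in each gene the fit without KO replicate 4 lies lowest: 0.55 for Itgb6, 0.67 for Lamb1, 0.78 for Itga6, 0.63 for Itgav and 0.88 for Itgb4.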

How the data were processed

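The authors deposited 1 table per library with raw read counts for each Ensembl gene of the mouse. The submitters' processing notes name bcl2fastq 2.20, fastp 0.20.0, STAR 2.7.4a and the build GRCm38.p6, with no order or role. Which program counted the reads, with which annotation release and strand setting, was not given in the sources, so reads of overlapping genes cannot be told apart. This touches 14 members, and in 8 the overlapping gene had more than 10% of the member's counts. Names and merged exon lengths were taken from GENCODE vM21 (GRCm38), which named 42347 of 42416 identifiers; the other 69, with 0.0199% of counts, were left out. Genes with 10 or more counts in 4 or more libraries were scaled by TMM and compared with edgeR 4.0.16 (R 4.3.3) by its quasi-likelihood F test, KO over Control, n = 4 each, with genotype as the single factor. Adjusted p-values are Benjamini-Hochberg values over all 14444 genes tested, with a threshold of 0.05. SEs are approximate, taken as the fold change over the square root of F. The test was tried on simulated counts first. Alternatives were DESeq2 1.42.0, limma-voom (limma 3.58.1) with library quality weights, other scalings and filters, removal of mitochondrially encoded genes, a term for whether the file name carries an index sequence, a block on the leading digits of the animal numbers, and leaving out each library. Libraries of 1 group differed by more than sampling noise, and each label carries its own animal number. All members but 1, which is not reported here, are named, with values per library for the 15 smallest p-values and for the 2 members of each class with the highest level per kilobase. In the other lists, up to 4 genes past the threshold, or else the 2 with the smallest p, were named. Members, lists and tests were chosen with earlier results of these data known.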

Additional observations from a re-analysis of the deposited data

Results flagged for a closer look

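In groups of 4 libraries, a value was looked at again where its gap to the nearest other value took up more of the group's range than Dixon's 95% critical value allows. Chance flags about 1 in 20 groups, and 6 of 58 groups were flagged here. In KO, replicate 4 stood above the others for Itgav (484 CPM, others 300 to 327), Itgb4 (13.9 CPM, others 5.23 to 6.09) and Lamc1 (82.7 CPM, others 47.6 to 53.4). In Control, replicate 1 stood below the others for Itga6 (194 CPM, others 262 to 272) and Itga9 (0.341 CPM, others 0.888 to 0.962), and replicate 2 stood above them for Lamb1 (278 CPM, others 219 to 223). The cause was not tested.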

How the results depend on the processing

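The count of members called was 1 as reported and varied with most settings. It was 5 with DESeq2, 4 with limma-voom and with no filter on low counts, 3 with library totals, 2 with upper-quartile scaling and with filterByExpr, and 0 with at least 5 CPM, with the file name term and with the block on animal numbers, in which the Control library that is alone in its set carries no information. Leaving out 1 library gave 0 to 3, and 3 came without KO replicate 3. Calls over all genes, 298 as reported, were 753 with DESeq2, 567 with limma-voom, 142 with at least 5 CPM, 199 with the file name term, 29 with the block and 36 to 351 with 1 library left out. Over the 5 adhesion lists, 6 calls became 13 with DESeq2, 11 with limma-voom, 2 with at least 5 CPM and with the file name term, 0 with the block and 0 to 7 with 1 library left out. Each fit that leaves out a library has fewer samples. Otherwise the cause was not tested. With library totals as the scaling, the median log2 fold change over all genes was 0.13 where it was -0.02 as reported, and the share of calls that were higher was 73.0% where it was 59.4%. That share was 17.2% with the block.

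Of the members' log2 fold changes under other settings, 26 of 508 changed sign, all in members that did not pass. Lamb2 became -0.0037 with DESeq2, -0.001 with upper-quartile scaling, -0.012 with at least 5 CPM, -0.0015 with the file name term and -0.0028 without mitochondrial genes, and -0.085 to 0.17 with 1 library left out. Itgae became 0.11 with library totals, 0.44 with limma-voom, 0.040 with the file name term and 0.13 with the block, and -0.37 to 0.30 with 1 library left out. Itgal became -0.066 with limma-voom and -0.066 to 0.39 with 1 library left out, and Nid2 -0.18 and -0.12 to 0.20. Itgb5 became 0.013 with library totals. With 1 library left out, Itga10 ran from -0.19 to 0.90 and Itga9 from -0.77 to 0.0075. No paired analysis was possible because the labels give the groups no shared replicate numbers.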
